A study of Mus musculus with 20 samples.

Results

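The 35 mouse genes described here work in the endoplasmic reticulum (ER), where they fold secretory proteins, dispose of those that fail to fold, or report on the load. They were followed in liver, and 34 of them were measured. Members were chosen by name, as probe sets whose annotated symbol is exactly that of a member. They were read by 85 of the 45037 probe sets of the array and make up 34 of the 18193 genes with a probe set of their own. The genes fall into 16 measured genes of folding (chaperones, cochaperones and disulfide enzymes), 9 of ER-associated degradation, 7 of the stress sensors with their proteases and Xbp1, and 2 of the translocon. The one member without a match, Ero1lb, an oxidase that recharges protein disulfide isomerases, is annotated as Ero1b in the table used here, and its values are given apart.

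The 4 groups held 5 male mice each, 9 weeks old at the start, with 1 Affymetrix Mouse430_2 array of liver RNA per mouse. CMP013 is an inhibitor of the protease BACE1, and PXR (Nr1i2) is a nuclear receptor that turns on drug-metabolizing genes when foreign compounds bind it. WT mice (C57BL/6, PXR+/+) and PXR-KO mice (PXR-/-) received CMP013 at 150 mg/kg/day by gavage every 24 h, or the dosing vehicle alone, and livers were taken at 96 h. One label field gives the PXR-KO mice as C57BL/6 and others as C57BL/6NTac, so genotype and substrain cannot be told apart. Each deposited value is the log10 ratio of 1 mouse to the mean of the 5 vehicle mice of its own genotype. All values below are on the log2 scale, and a response is the mean of the CMP013 mice minus that of the vehicle mice. Since the table holds ratios and no intensities, the liver identity of the samples could not be checked by marker levels, levels were not compared between genes, and knockout against wild type under vehicle was not analysed here. In whole liver, fewer cells of a type and less RNA per cell cannot be told apart.

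The ER folds and glycosylates proteins that enter it through the Sec61 channel. BiP, the product of Hspa5, binds unfolded chains with the help of J-domain cochaperones, calnexin and calreticulin hold glycoproteins, and disulfide isomerases set the cysteine bonds. Chains that fail are drawn back to the cytosol through the Hrd1 complex (Syvn1, Sel1l, Herpud1, Derlins, with Os9 and the Edem proteins reading the sugar) and degraded by the proteasome. When unfolded protein accumulates, the sensors Ire1 (Ern1), Atf6 and Perk (Eif2ak3) start the unfolded protein response, in which spliced Xbp1 and cleaved Atf6 raise chaperone and degradation genes. The hepatocyte, a heavy secretor of plasma proteins and a site where drugs expand the smooth ER, is much studied for this response.

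In PXR-KO CMP013 replicate 1 and in PXR-KO vehicle replicate 4 most members were the highest of their group. PXR-KO CMP013 replicate 1 held the highest value of its group for 28 of the 34 members, and its median over the members was 0.40, against 0.04, 0.00, 0.18 and 0.02 in replicates 2 to 5. The same count over all genes was not made. Of the further lists described below, this mouse also had the highest median of its group for translocation (0.22), folding (0.12) and degradation (0.12). For the cytosolic heat shock genes it had the lowest (0.11). Among the PXR-KO vehicle mice, replicate 4 was the highest for 23 members (median 0.16) and replicate 1 the lowest for 19 (median -0.12). In WT CMP013 mice the medians ran from 0.06 to 0.26, and no mouse was the highest for more than 14 members. The spread of the PXR-KO mice, treated and vehicle, therefore goes into every PXR-KO value below. The array medians over all probe sets ran from -0.0275 to 0.0117 over the 20 arrays. That of PXR-KO CMP013 replicate 1 (-0.00193) did not stand apart. The cause was not tested. Vehicle replicates 3 and 4 of WT and 2 and 4 of PXR-KO mice had stood apart in an earlier analysis of these data, and the calls without them are given after the results.

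In WT livers CMP013 changed a minority of these genes, in both directions. There, 9 rose and 2 fell of the 34 (limma, Benjamini-Hochberg adjusted p under 0.05 over all probe sets). The 9 are 26.5% of the members, where 9.72% of all 18193 genes rose, and the 2 are 5.88%, where 7.98% of all genes fell. The count of falling members was thus near the background and is no result about them. The list of members was drawn up with earlier results of these data known. The share of rises, here and in the classes below, is therefore a description and was not tested. The rises were Dnajb9, Pdia4, Derl1, Syvn1, Edem2, Mbtps2, Atf6, Sec61b and Sec61a1, and the falls were Herpud1 and Os9. Of these 11 calls, 2 (Dnajb9 and Derl1) were kept under quantile normalization of the ratios, with the values given after the results. The median response over the 34 members was 0.12, beside 0.00 over all genes, and the responses ran from -0.53 to 1.246. In PXR-KO livers no member passed the test in either direction, where 2.5% of all genes rose and 2.14% fell. At an unadjusted p under 0.05, 8 members were past it in PXR-KO livers, 7 of them upward, against 17 members in WT livers, 13 of them upward. The PXR-KO median was 0.14, beside -0.02 over all genes, with a range from -0.43 to 0.80. That median was 0.05 without PXR-KO CMP013 replicate 1, the mouse described above.

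The difference between the responses, WT minus PXR-KO, was tested in 1 fit over all 20 arrays. It was positive and past the threshold for Pdia4, Mbtps2 and Sec61b, and negative for Herpud1 and Os9. These 3 and 2 genes are 8.82% and 5.88% of the members, beside 7.39% and 6.22% of all genes. The shares of the members lie near those of all genes, so the counts say nothing particular to the members, and only the values of single genes are described. The heat map of the members shows every gene in every mouse.

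**Figure D1:**
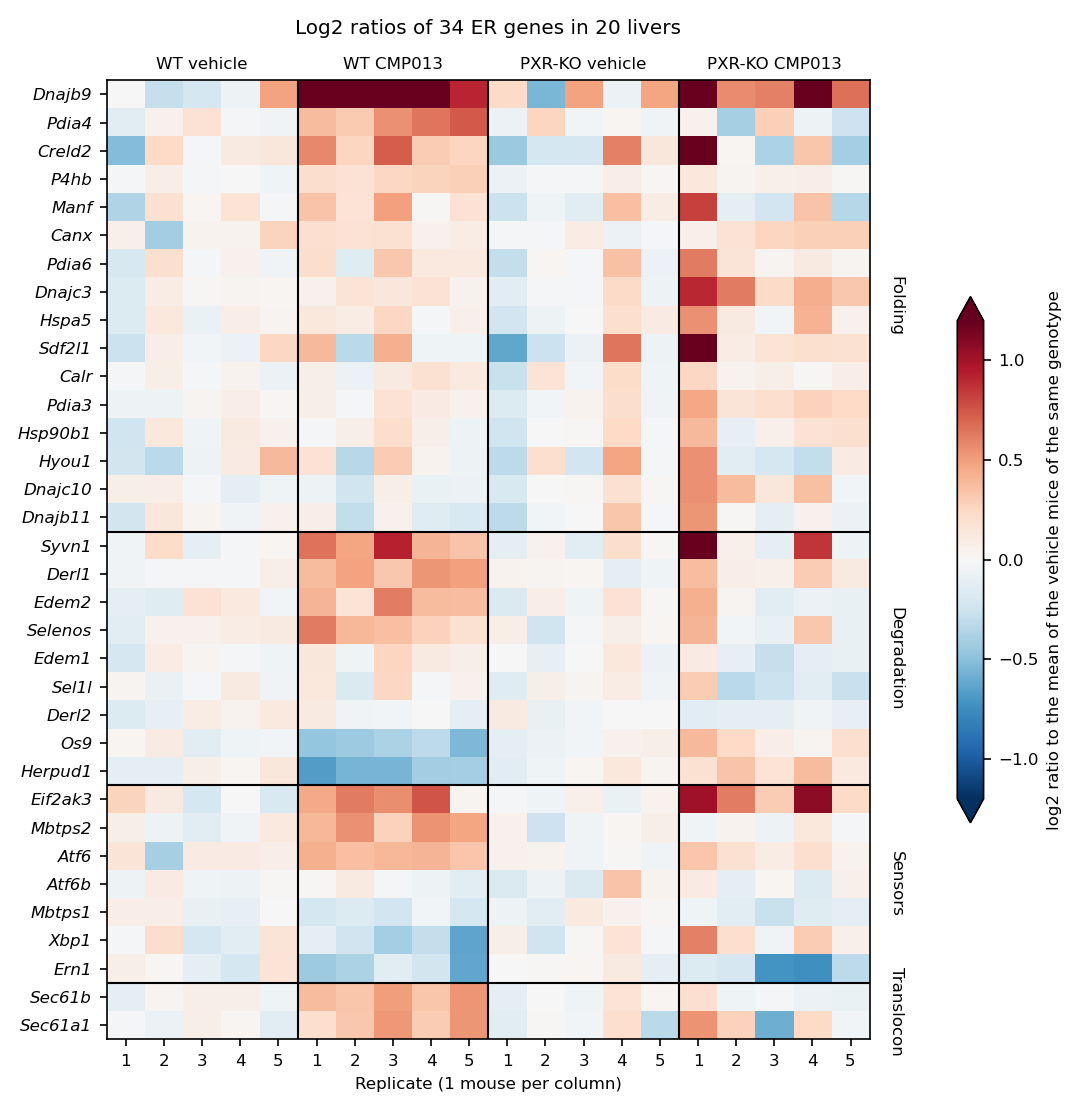
Each row is 1 of the 34 measured ER genes and each column 1 of the 20 mice, coloured by the log2 ratio to the mean of the vehicle mice of the same genotype, with the scale clipped at 1.2 in either direction. Dnajb9 is high in all 5 WT CMP013 mice (0.91 to 1.47), Herpud1 and Os9 are low in the same mice, and PXR-KO CMP013 replicate 1 is high over most rows.

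Among the 16 genes of folding, 2 rose in WT livers and none fell, with a median response of 0.11. That share of 12.5% lies near the 9.72% of all genes that rose and is no result about the folding genes. The PXR-KO median was 0.20, and 0.08 without CMP013 replicate 1. The median of the 16 genes in a mouse ran from 0.07 to 0.25 in WT CMP013 and from -0.16 to 0.08 in WT vehicle mice, and from 0.06 to 0.55 in PXR-KO CMP013 and from -0.23 to 0.23 in PXR-KO vehicle mice. None of the central chaperones passed the test by the probe set that measures it here. For Hspa5 (BiP) the log2 ratios were 0.13, 0.09, 0.25, -0.01 and 0.06 in the WT CMP013 mice and -0.16, 0.13, -0.08, 0.08 and 0.03 in the WT vehicle mice. The groups overlapped, and the response of 0.10 (95% interval -0.10 to 0.30) did not pass the test (adjusted p by limma 0.524). In PXR-KO mice the ratios of Hspa5 were 0.55, 0.11, -0.03, 0.42 and 0.05 with CMP013 and -0.23, -0.06, 0.00, 0.20 and 0.10 with vehicle, which also overlapped (response 0.21, interval -0.09 to 0.52, adjusted p by limma 0.414). One of the 2 other probe sets of Hspa5 passed in WT livers and in the difference, and its values are given with all probe sets. The response of Hsp90b1 (Grp94, the ER member of the Hsp90 family) was 0.05 in WT and 0.14 in PXR-KO livers. For Calr, the soluble lectin chaperone, it was 0.08 in both genotypes, and for Canx, its membrane-bound relative, 0.14 and 0.22. Hyou1, which exchanges the nucleotide of BiP, stood at 0.05 and -0.02.

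Several of these chaperone genes are known for the ER stress response element (ERSE) in their promoters, and the windows are shown for that reason. The ERSE is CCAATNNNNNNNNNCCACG, read by NF-Y together with Atf6 or Xbp1, and the related ERSE-II is ATTGGNCCACG. Both strands of the RefSeq promoter windows (250 bases before to 50 after a start site, GRCm38.p6) were searched for these letters and for TGACGTG, the core of the element bound by Xbp1 (UPRE). The ERSE stood in 39 of 32851 windows (0.119%), the ERSE-II in 12 (0.0365%) and the UPRE core in 661 (2.01%). Of the 29 measured members with a window, 8 held an ERSE (Hspa5, Hsp90b1, Calr, Canx, Pdia6, Dnajc3, Creld2 and Syvn1), 2 an ERSE-II (Herpud1 and Dnajb11) and 1 the UPRE core (Hspa5), and no match overlapped another. In the sequences, 5′ to 3′ on the gene's strand, capitals mark these matches. Hspa5 (chr2:34771840-34772139, plus strand) has its ERSE at -65 to -47 from the start site and the UPRE core at -157 to -151. Hsp90b1 (chr10:86705395-86705694, minus strand) has one at -212 to -194 and one on the opposite strand at -107 to -89. Dnajb9 (chr12:44210019-44210318, minus strand), the member with the highest WT response, has none of the 3 motifs in its window.
Hspa5: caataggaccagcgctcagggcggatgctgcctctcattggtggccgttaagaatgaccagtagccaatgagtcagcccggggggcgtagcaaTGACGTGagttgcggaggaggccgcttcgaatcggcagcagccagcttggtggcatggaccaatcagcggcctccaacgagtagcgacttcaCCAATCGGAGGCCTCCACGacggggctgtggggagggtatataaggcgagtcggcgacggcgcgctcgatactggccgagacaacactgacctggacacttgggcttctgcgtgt
Hsp90b1: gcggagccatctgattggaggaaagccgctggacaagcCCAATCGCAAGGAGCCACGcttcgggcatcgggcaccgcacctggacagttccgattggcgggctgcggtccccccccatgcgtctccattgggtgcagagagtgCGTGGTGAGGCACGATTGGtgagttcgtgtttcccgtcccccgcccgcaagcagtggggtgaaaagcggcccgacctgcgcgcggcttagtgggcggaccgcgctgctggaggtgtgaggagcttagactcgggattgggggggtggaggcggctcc
Dnajb9: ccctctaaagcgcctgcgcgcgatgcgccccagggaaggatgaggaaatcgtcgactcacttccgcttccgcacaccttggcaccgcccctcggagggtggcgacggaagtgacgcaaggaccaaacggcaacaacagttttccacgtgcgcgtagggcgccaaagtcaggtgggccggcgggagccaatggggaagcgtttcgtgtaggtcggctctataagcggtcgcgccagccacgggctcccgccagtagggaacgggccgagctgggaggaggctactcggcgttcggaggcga

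Of the 10 members with an ERSE or ERSE-II, 1 rose in WT livers (Syvn1) and 1 fell (Herpud1), with a median response of 0.11 and a range from -0.53 to 0.54. Of the 19 members whose window held neither, 5 rose and 1 fell, with a median of 0.09. Among all genes 9.72% rose and 7.98% fell in WT livers, so 1 of 10 in either direction lies near the background. The sets of 10 and 19 members were not tested against each other, and no contrast between them is drawn from these counts. In PXR-KO livers the medians were 0.22 and 0.04, and no gene of either set passed the test. A match is a run of letters and no measured binding, and a window without one says only that those letters are not in it. The 5 measured members (Hyou1, Manf, Derl1, Atf6 and Sec61a1) without a window in the table used are left out of this count.

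Dnajb9 (ERdj4), a J-domain cochaperone that hands clients to BiP and to degradation, had the largest response of the 34 members. Its log2 ratios were 1.27, 1.47, 1.24, 1.28 and 0.91 in the WT CMP013 mice and 0.00, -0.28, -0.21, -0.06 and 0.48 in the WT vehicle mice. All 5 treated mice lay above all vehicle mice, and the response was 1.246 (standard error 0.158, 2.37-fold, adjusted p by limma 0.000834). With the PXR-KO mice the ratios were 1.55, 0.57, 0.60, 1.21 and 0.66 under CMP013 and 0.23, -0.55, 0.48, -0.07 and 0.47 under vehicle. There too no treated mouse lay within the vehicle range, although the vehicle mice ran from -0.55 to 0.48 and the response of 0.80 (standard error 0.252) did not pass the test over all probe sets (adjusted p by limma 0.112). The difference of 0.44 between the genotypes had a 95% interval from -0.20 to 1.09 and did not pass either (adjusted p by limma 0.4), so Dnajb9 was not shown to respond differently in the absence of PXR.

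Pdia4 (ERp72), a disulfide isomerase, rose in WT livers and not in PXR-KO livers, and the difference passed the test. Its ratios were 0.38, 0.31, 0.55, 0.64 and 0.74 in WT CMP013 mice and -0.14, 0.05, 0.17, -0.01 and -0.04 in WT vehicle mice, with no overlap (response 0.52, standard error 0.107, 1.43-fold, adjusted p by limma 0.0102). In PXR-KO mice they were 0.05, -0.40, 0.29, -0.06 and -0.25 with CMP013 and -0.07, 0.26, -0.03, 0.02 and -0.04 with vehicle, scattered on either side of 0 (response -0.10, adjusted p by limma 0.727). The difference was 0.62 (95% interval 0.26 to 0.98, adjusted p by limma 0.0237). A second probe set of Pdia4 gave 0.25 in WT livers (adjusted p by limma 0.28), 0.18 in PXR-KO livers and a difference of 0.06, so the call rests on 1 of the 2 probe sets. With the mean of both, the difference was 0.34 (adjusted p by limma 0.113).

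The other folding genes did not pass in either genotype by their measuring probe sets. P4hb, the common disulfide isomerase, gave 0.24 in WT livers, with ratios of 0.17 to 0.29 in treated and -0.05 to 0.08 in vehicle mice, just outside the threshold (adjusted p by limma 0.0528). Creld2, an ER-stress-inducible protein with disulfide activity, gave 0.44 in WT livers with a standard error of 0.161 (adjusted p by limma 0.104). Also in WT livers, Pdia3 and Pdia6, further disulfide isomerases, gave 0.08 and 0.13, Manf, a small factor retained in the ER, 0.24, and Sdf2l1, a partner of Dnajb11, 0.09. The PXR-KO responses of Pdia3, Pdia6, Manf and Sdf2l1 were 0.26, 0.19, 0.10 and 0.45. Dnajc10 (ERdj5), a reductase that opens disulfides before degradation, stood at -0.07 in WT and 0.27 in PXR-KO livers. Its other probe sets gave 0.10 and 0.25 in WT livers. In PXR-KO livers they gave 0.76 and 0.75, and the one at 0.75 passed (adjusted p by limma 0.0461). Dnajb11 (ERdj3) stood at -0.10 in WT and 0.09 in PXR-KO livers. Dnajc3 (p58IPK), a cochaperone that was first known as an inhibitor of eIF2alpha kinases, gave 0.11 in WT and 0.50 in PXR-KO livers (ratios 0.23 to 0.90 in treated and -0.13 to 0.23 in vehicle mice, adjusted p by limma 0.0752). Its other probe sets gave -0.33 to -0.10 in WT and 0.12 to 0.47 in PXR-KO livers. The Dnajc3 difference of -0.38 did not pass (adjusted p by limma 0.117). With the mean of its probe sets the difference was -0.48 and passed (adjusted p by limma 0.017). In the plot of responses the PXR-KO standard errors of Creld2, Sdf2l1 and Manf are the widest of the folding genes beside Dnajb9.

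**Figure D2:**
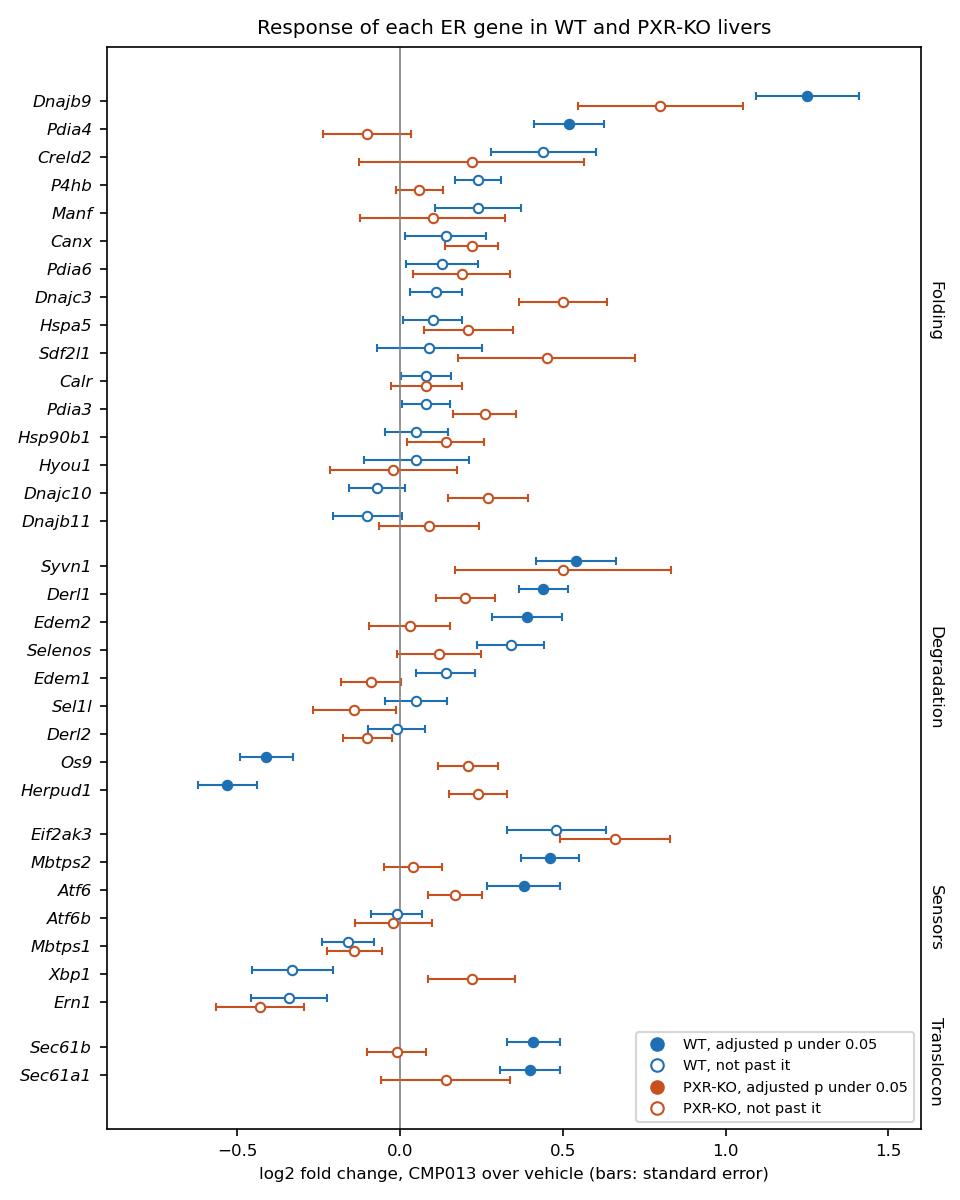
Log2 fold change, CMP013 over vehicle, of each measured member in WT (blue) and PXR-KO (orange) livers, with standard errors from limma and filled points where the adjusted p was under 0.05 (5 mice per group). No PXR-KO point is filled, and Herpud1 and Os9 lie below 0 in WT and above 0 in PXR-KO livers.

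The degradation genes went in both directions. Of the 9, 3 rose (33.3%) and 2 fell (22.2%) in WT livers, beside 9.72% and 7.98% of all genes. The 2 falls are those already counted over the 34 members, where their share lay near that of all genes. Herpud1, a ubiquitin-like membrane protein that assembles the Hrd1 ligase with its partners, fell by 0.53 (standard error 0.0899, 1.44-fold, adjusted p by limma 0.004). Its ratios were -0.67, -0.56, -0.56, -0.42 and -0.41 in the WT CMP013 mice against -0.11, -0.11, 0.07, 0.02 and 0.14 in the WT vehicle mice, with a clear gap. In PXR-KO mice the ratios were 0.18, 0.34, 0.16, 0.38 and 0.12 with CMP013 and -0.13, -0.05, 0.02, 0.13 and 0.03 with vehicle, all 5 treated mice above 0. That response of 0.24 did not pass the test over all probe sets (adjusted p by limma 0.177), and the lowest treated mouse lay just inside the vehicle range. The difference of -0.76 (95% interval -1.01 to -0.52) had the smallest adjusted p of the members (0.000314 by limma). The second probe set of Herpud1 gave -0.68 in WT livers, 0.28 in PXR-KO livers and a difference of -0.96 (adjusted p by limma 4.5e-05).

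Os9, a lectin that brings misfolded glycoproteins to the Hrd1 complex, behaved in the same way in these mice. The ratios were -0.46, -0.44, -0.38, -0.31 and -0.54 in WT CMP013 mice and 0.02, 0.10, -0.13, -0.05 and -0.03 in WT vehicle mice. The groups did not overlap, and Os9 fell by 0.41 (standard error 0.0812, 1.33-fold, adjusted p by limma 0.00855). In PXR-KO mice the ratios were 0.39, 0.24, 0.08, 0.03 and 0.20 against -0.11, -0.07, -0.03, 0.05 and 0.07, with the 2 lowest treated mice close to the highest vehicle mouse (response 0.21, adjusted p by limma 0.244). The difference was -0.62 (95% interval -0.85 to -0.38, adjusted p by limma 0.00133). The second probe set of Os9 also fell in WT livers (-0.40, adjusted p by limma 0.0439) but gave -0.04 in PXR-KO livers and a difference that did not pass (-0.35, adjusted p by limma 0.399).

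**Figure D3:**
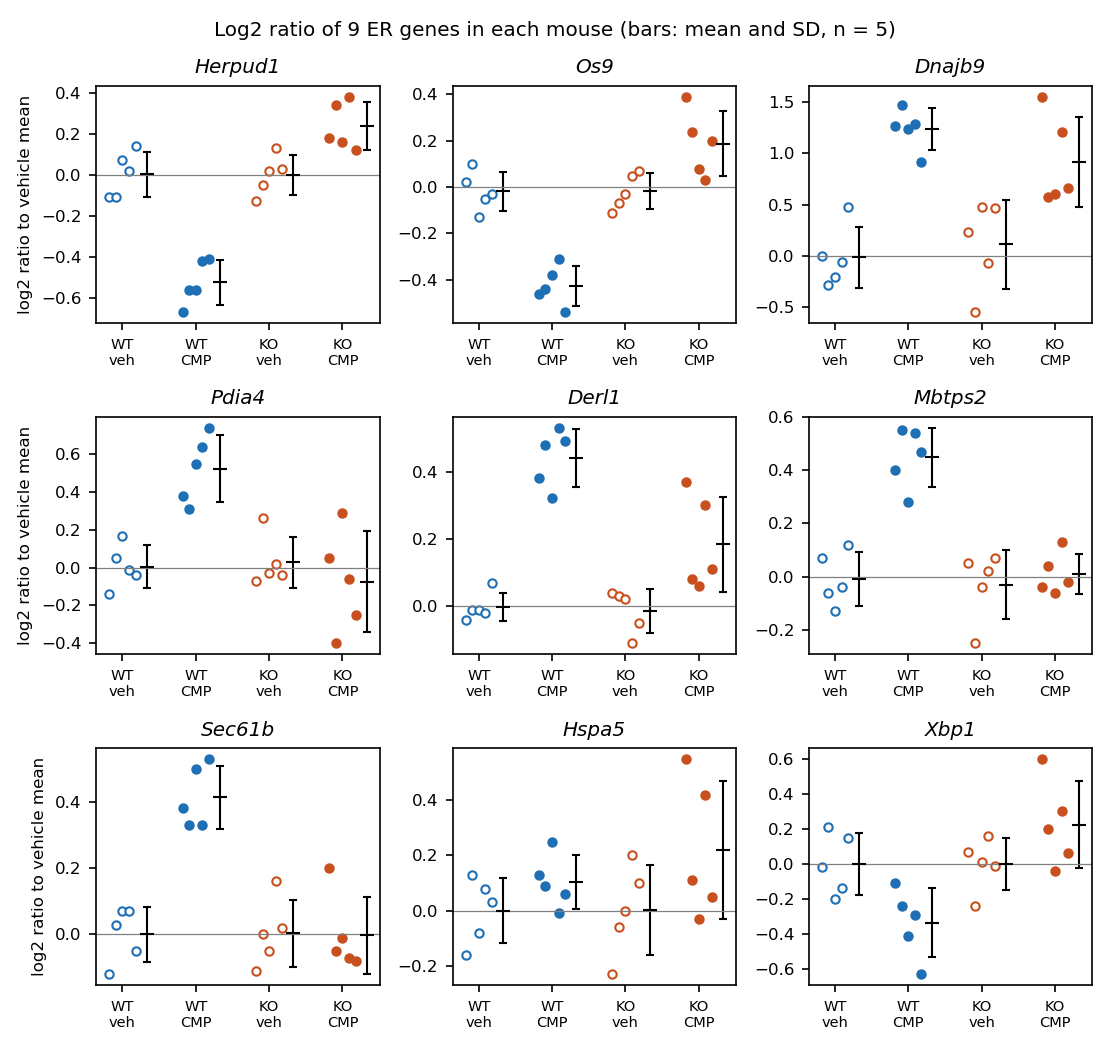
Log2 ratio of each mouse to the mean of the vehicle mice of its genotype for 9 members, in WT vehicle (WT veh), WT CMP013 (WT CMP), PXR-KO vehicle (KO veh) and PXR-KO CMP013 (KO CMP) mice, with the mean and SD of 5 mice beside the points. Each panel has its own vertical scale, and Herpud1 and Os9 stand below the vehicle mice in all 5 treated WT mice and above 0 in all 5 treated PXR-KO mice.

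The ligase itself and a channel component went the other way. Syvn1 (Hrd1), the ubiquitin ligase at the centre of the complex, gave 0.65, 0.47, 0.92, 0.41 and 0.34 in WT CMP013 mice and -0.04, 0.22, -0.11, -0.01 and 0.02 in WT vehicle mice. All treated mice lay above all vehicle mice, and Syvn1 rose by 0.54 (standard error 0.123, 1.46-fold, adjusted p by limma 0.0163). In PXR-KO mice 2 of the 5 treated mice were high (1.77 and 0.86), the other 3 lay at 0.06, -0.11 and -0.06, and the vehicle mice at -0.12, 0.05, -0.14, 0.21 and 0.01. The PXR-KO response of 0.50 had a standard error of 0.332 and did not pass (adjusted p by limma 0.433), and the difference of 0.04 had an interval from -0.74 to 0.82, too wide to compare the genotypes. Derl1, a rhomboid-like protein of the retrotranslocation channel, gave 0.38, 0.48, 0.32, 0.53 and 0.49 in WT CMP013 mice and -0.04, -0.01, -0.01, -0.02 and 0.07 in WT vehicle mice. These 2 groups lay far apart for their spread, and Derl1 rose by 0.44 (standard error 0.076, 1.36-fold, adjusted p by limma 0.00404). With 0.37, 0.08, 0.06, 0.30 and 0.11 the PXR-KO CMP013 mice also lay above their vehicle mice (0.04, 0.03, 0.02, -0.11 and -0.05), by a response of 0.20 that did not pass (adjusted p by limma 0.254). The difference of 0.25 did not pass either (95% interval 0.03 to 0.46, adjusted p by limma 0.148). Of the 4 probe sets of Derl1, 3 rose in WT livers (0.40 to 0.44) and the fourth gave 0.15. For 1 of the 3, at 0.42 in WT and 0.06 in PXR-KO livers, the difference of 0.36 passed the test (adjusted p by limma 0.0179), and for the remaining probe sets it was 0.13 and 0.11 and did not pass.

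The promoter windows of these degradation genes are given because one of the genes with a stress element fell while the other rose. Herpud1 (chr8:94386179-94386478, plus strand) has the ERSE-II in capitals at -52 to -42, and Syvn1 (chr19:6046326-6046625, plus strand) the ERSE at -44 to -26.
Herpud1: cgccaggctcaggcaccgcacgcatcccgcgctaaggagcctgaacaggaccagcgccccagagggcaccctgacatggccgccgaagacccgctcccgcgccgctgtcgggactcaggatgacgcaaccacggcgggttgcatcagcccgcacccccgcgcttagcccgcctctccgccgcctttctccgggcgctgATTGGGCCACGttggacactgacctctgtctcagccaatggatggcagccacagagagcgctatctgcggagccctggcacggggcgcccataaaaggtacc
Syvn1: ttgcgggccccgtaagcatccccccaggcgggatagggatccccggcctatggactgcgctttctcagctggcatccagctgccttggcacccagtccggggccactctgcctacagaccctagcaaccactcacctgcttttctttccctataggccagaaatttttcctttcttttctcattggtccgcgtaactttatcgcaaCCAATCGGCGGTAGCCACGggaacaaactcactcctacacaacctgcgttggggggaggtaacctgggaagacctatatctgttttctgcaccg

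Edem2, a mannosidase-like protein that marks glycoproteins for degradation, gave 0.41, 0.16, 0.61, 0.38 and 0.37 in WT CMP013 mice and -0.11, -0.15, 0.17, 0.12 and -0.03 in WT vehicle mice. There, 4 treated mice lay above all vehicle mice and 1 within their range, and Edem2 rose by 0.39 (standard error 0.107, adjusted p by limma 0.0364). This call was lost in 7 of the 10 fits with 1 mouse left out (adjusted p by limma 0.0272 to 0.0874), and was kept when the mouse left out was vehicle replicate 3 or 4 or CMP013 replicate 2, and in no other fit. In PXR-KO mice replicate 1 was at 0.43 and the other treated mice at 0.03, -0.13, -0.07 and -0.09, within the vehicle values of -0.17, 0.08, -0.05, 0.17 and 0.01. A second probe set of Edem2 spread more among vehicle mice (SD 0.469, against 0.135). It gave -0.08 in WT livers (adjusted p by limma 0.879) and 0.03 in PXR-KO livers. With the mean of both probe sets, the WT call of Edem2 was lost. Of the remaining degradation genes, Selenos (VIMP), a selenoprotein that recruits the p97 ATPase, gave 0.34 in WT livers, with no overlap of the groups (0.18 to 0.62 against -0.14 to 0.11) and an adjusted p by limma of 0.0522. Edem1, Sel1l, the adaptor that steadies Hrd1, and Derl2 gave 0.14, 0.05 and -0.01. Over the 9 genes the median response was 0.14 in WT and 0.12 in PXR-KO livers.

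Among the 7 sensor genes, 2 rose in WT livers (28.6%, beside 9.72% of all genes), none fell, and the median response was -0.01 (0.04 in PXR-KO livers). The mean ratios of both genes of the Ire1 arm were below 0 in WT CMP013 mice, short of the threshold. Ern1 (Ire1alpha) gave -0.44, -0.38, -0.13, -0.22 and -0.62 in WT CMP013 mice and 0.07, 0.01, -0.12, -0.21 and 0.16 in WT vehicle mice, with overlap (response -0.34, standard error 0.117, adjusted p by limma 0.0826). In PXR-KO mice Ern1 gave -0.16, -0.20, -0.72, -0.74 and -0.31 with CMP013 and 0.00, 0.01, 0.02, 0.11 and -0.11 with vehicle. Those groups did not overlap, and the response of -0.43 did not pass either (standard error 0.135, adjusted p by limma 0.109). Another probe set of Ern1 pointed the opposite way in the same mice, with a PXR-KO response of 0.44, no overlap of the groups and an adjusted p by limma of 0.073. The 3 remaining Ern1 probe sets gave -0.16, -0.18 and -0.21 in PXR-KO livers, and the mean over all 5 was -0.11 (adjusted p by limma 0.725), so no direction is given for Ern1 there.

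Xbp1, the transcription factor whose mRNA Ire1 splices, gave -0.11, -0.24, -0.41, -0.29 and -0.63 in WT CMP013 mice and -0.02, 0.21, -0.20, -0.14 and 0.15 in WT vehicle mice. The groups overlapped, and the response was -0.33 (standard error 0.124, adjusted p by limma 0.109). The PXR-KO mice gave 0.60, 0.20, -0.04, 0.30 and 0.06 with CMP013 against 0.07, -0.24, 0.01, 0.16 and -0.01 with vehicle (response 0.22, adjusted p by limma 0.377). The difference of -0.56 lay just outside the threshold (95% interval -0.93 to -0.18, adjusted p by limma 0.0537). Of the 3 other Xbp1 probe sets 2 passed it, with differences of -0.64 and -0.54 (adjusted p by limma 0.0298 and 0.0141), and the third gave -0.20. Both that passed carry the _s_ mark in their names, which ranks a probe set behind unmarked ones here. These values count all Xbp1 mRNA, and its splicing was not analysed here.

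The 2 rises were in the Atf6 branch. Mbtps2 (site-2 protease), which makes the second cut that frees Atf6 and also the sterol regulators of the SREBP family, gave 0.40, 0.55, 0.28, 0.54 and 0.47 in WT CMP013 mice. The WT vehicle mice stood at 0.07, -0.06, -0.13, -0.04 and 0.12, below all treated mice, and Mbtps2 rose by 0.46 (standard error 0.0889, 1.37-fold, adjusted p by limma 0.00783). In PXR-KO mice the ratios of -0.04, 0.04, -0.06, 0.13 and -0.02 with CMP013 lay among the vehicle ratios of 0.05, -0.25, -0.04, 0.02 and 0.07 (response 0.04), and the difference of 0.42 passed the test (95% interval 0.17 to 0.66, adjusted p by limma 0.0253). A probe set annotated to both Mbtps2 and Yy2, and therefore not used, went the other way, at 0.04 in WT and 0.93 in PXR-KO livers (adjusted p by limma 0.104), with a difference of -0.89 that did not pass (adjusted p by limma 0.147). Mbtps1 (site-1 protease), which makes the first cut, did not go with it (-0.16 in WT and -0.14 in PXR-KO livers, neither past the test). Atf6 gave 0.43, 0.36, 0.40, 0.41 and 0.33 in WT CMP013 mice and 0.15, -0.40, 0.10, 0.10 and 0.08 in WT vehicle mice. No treated mouse lay in the vehicle range, and Atf6 rose by 0.38 (standard error 0.112) at an adjusted p of 0.0494 by limma. Leaving out 1 mouse at a time ended the Atf6 call in 9 of 10 fits (adjusted p by limma 0.0413 to 0.0931), and it was kept only without WT vehicle replicate 2, the mouse at -0.40. In PXR-KO mice Atf6 gave 0.33, 0.18, 0.09, 0.20 and 0.04 with CMP013 and 0.05, 0.04, -0.04, 0.01 and -0.04 with vehicle (response 0.17, adjusted p by limma 0.295). Other probe sets of Atf6 gave 0.84 and 0.49 in PXR-KO livers (adjusted p by limma 0.0668 and 0.0463). In WT livers the same probe sets gave 0.29 and 0.37, neither past the test. With the mean of its probe sets, the Atf6 response in PXR-KO livers was 0.50 (adjusted p by limma 0.0371), and the WT call was lost. No Atf6 probe set had a difference past the test. The relative of Atf6, Atf6b, stood at -0.01 in WT and -0.02 in PXR-KO livers.

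Eif2ak3 (Perk), the kinase that slows translation under ER stress, gave 0.45, 0.62, 0.56, 0.75 and 0.03 in WT CMP013 mice and 0.27, 0.11, -0.21, 0.00 and -0.18 in WT vehicle mice. Replicate 5 was the single treated mouse within the vehicle range, and the response of 0.48 (standard error 0.152) did not pass (adjusted p by limma 0.0601). In PXR-KO mice it gave 1.02, 0.61, 0.30, 1.07 and 0.23 with CMP013 and -0.02, -0.05, 0.06, -0.08 and 0.04 with vehicle, without overlap (response 0.66, standard error 0.169, adjusted p by limma 0.063). The difference was -0.17 (95% interval -0.66 to 0.31). This PXR-KO response passed the test without PXR-KO CMP013 replicate 3 or 5 (adjusted p by limma 0.046 and 0.0395). The WT response passed without WT CMP013 replicate 5 (0.60, adjusted p by limma 0.0143). Averaged over the probe sets of Eif2ak3, it was 0.80 and also passed (adjusted p by limma 0.0446). Its other probe sets spread more among vehicle mice (SD 0.989 and 0.922, against 0.15). Their WT responses were 1.04 and 0.86, their PXR-KO responses 1.66 and 0.36, and none passed.

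Both translocon genes rose in WT livers, with a median response of 0.41, against 0.07 in PXR-KO livers. Sec61b, the small beta subunit of the channel, gave 0.38, 0.33, 0.50, 0.33 and 0.53 in WT CMP013 mice and -0.12, 0.03, 0.07, 0.07 and -0.05 in WT vehicle mice. The groups were apart, and Sec61b rose by 0.41 (standard error 0.082, 1.33-fold, adjusted p by limma 0.00847). In PXR-KO mice replicate 1 was at 0.20 and the other treated mice at -0.05, -0.01, -0.07 and -0.08, among vehicle values of -0.11, 0.00, -0.05, 0.16 and 0.02 (response -0.01). The difference of 0.42 passed the test (95% interval 0.19 to 0.65, adjusted p by limma 0.0191). Sec61a1, the pore itself, gave 0.20, 0.32, 0.52, 0.30 and 0.53 in WT CMP013 mice and -0.01, -0.07, 0.07, 0.02 and -0.13 in WT vehicle mice, again without overlap (rise of 0.40, standard error 0.0922, adjusted p by limma 0.0175). Of its 6 probe sets 4 rose (0.29 to 0.45). The PXR-KO mice scattered, at 0.54, 0.28, -0.59, 0.24 and -0.03 with CMP013 and -0.13, 0.01, -0.03, 0.20 and -0.32 with vehicle, and the difference of 0.26 had an interval from -0.21 to 0.72. The median difference between the genotypes was 0.34 over the 2 translocon genes, 0.18 over degradation, 0.01 over the sensors and -0.07 over folding, beside 0.02 over all genes.

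Over all 85 probe sets of the members, 16 rose and 9 fell in WT livers, where 7.67% of all 45037 probe sets rose and 6.72% fell. The 16 belong to 11 genes and the 9 to 6 genes. In PXR-KO livers 2 rose and none fell (2.12% and 1.54% over all probe sets): 1 of 3 for Dnajc10 (0.75, adjusted p by limma 0.0461) and 1 of 3 for Atf6 (0.49, adjusted p by limma 0.0463). In the difference 5 were positive and 7 negative (5.47% and 5.49% over all probe sets). The plot of all probe sets shows where those of 1 gene part. For Hspa5, 1 of 3 rose in WT livers (0.47, adjusted p by limma 0.00402) while the others gave 0.10 and 0.09. The same probe set stood at 0.03 in PXR-KO livers, and its difference of 0.44 passed the test (adjusted p by limma 0.0094), against -0.11 and -0.13 for the others. That probe set carries the mark of possible cross-hybridization in its name. For Dnajc3, 1 of 5 fell (-0.33, adjusted p by limma 0.0426), and 2 of 5 had negative differences past the test (-0.66 and -0.57). For Sel1l, 2 of 5 fell (-0.43 and -0.32, adjusted p by limma 0.0108 and 0.0302) while the measuring probe set gave 0.05. For Edem1, 1 of 2 rose (0.46, adjusted p by limma 0.0271), for Ern1 1 of 5 fell (-0.35, adjusted p by limma 0.0452), and for Xbp1 1 of 4 fell (-0.29, adjusted p by limma 0.0401). The Xbp1 probe set that fell carries the _s_ mark. No gene had 1 probe set that rose and another that fell in the same comparison. Ero1b, the unmatched member, had probe sets at -0.08 and -0.10 in WT livers and another that fell by 0.66 (adjusted p by limma 0.0118). In PXR-KO livers these gave -0.35, 0.24 and -0.33 in the same order, none past the test. Probe sets that name 2 genes were not used, and besides the one shared by Mbtps2 and Yy2, 1 shared by Sec61b and Gm10320 rose by 0.78 in WT livers (adjusted p by limma 0.0177), gave -0.22 in PXR-KO livers and had a difference of 1.00 (adjusted p by limma 0.0941).

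**Figure D4:**
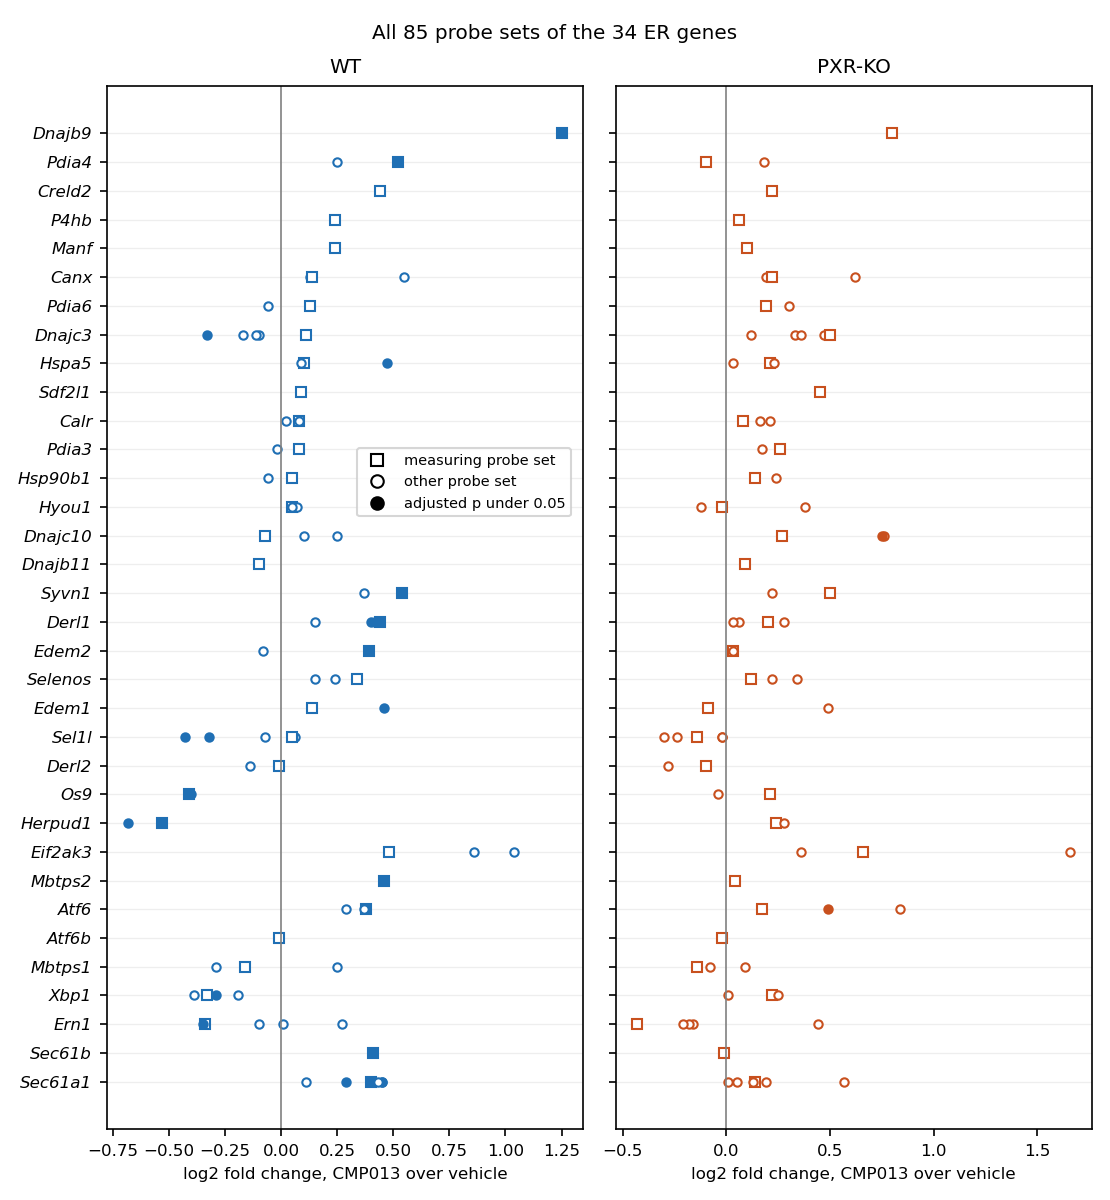
Log2 fold change, CMP013 over vehicle, of all 85 probe sets of the 34 members in WT (left) and PXR-KO (right) livers. Squares are the probe sets that measure the gene in the text, circles its other probe sets, and filled symbols those with an adjusted p under 0.05. Both probe sets of Herpud1 and of Os9 are filled below 0 on the left, and 2 circles are filled on the right.

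Genes outside the 35 place the members within the ER. For their counts, 9.72% of all genes rose and 7.98% fell in WT livers. Of 24 further genes of translocation, signal cleavage and oligosaccharide transfer, 14 rose and 1 fell in WT livers (median 0.31), none passed in PXR-KO livers, and the difference was positive for 6 and negative for 1. Among them were Srprb, a subunit of the signal recognition particle receptor (1.02 in WT, 0.34 in PXR-KO livers), Ostc (0.85 and -0.13) and Stt3b (0.61 and 0.11), both of the oligosaccharyltransferase, while Tram1, a translocating chain partner of Sec61, gave 0.22 and -0.27. Of 26 further folding genes 8 rose and 1 fell (median 0.19), with Hspa13 at 0.79, the cargo receptor Lman1 at 0.50, Uggt1, the sensor of glycoprotein folding, at 0.43 and the disulfide isomerase Txndc5 at 0.42. Of 23 further degradation genes 7 rose and 1 fell (median -0.01). Ubxn4, a p97 adaptor in the ER membrane, rose by 1.17, Nploc4, a cofactor of the same ATPase, by 0.83, p97 itself (Vcp) by 0.56 and Erlin1 by 0.51. None of these further folding or degradation genes passed in PXR-KO livers, and at an unadjusted p under 0.05 the limma counts were 6 and 5.

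A list for the Atf4 and CHOP arm and the cytosolic heat shock genes were read for comparison. The first list also names the kinases Mapk8, Eif2ak2 and Eif2ak4. Its counts are therefore not those of the branch downstream of Perk alone. Of the 19 measured genes of that list, 6 rose (Mapk8 and Eif2ak2 among them) and 2 fell in WT livers, and 2 rose and 1 fell in PXR-KO livers. Atf3, a stress-inducible transcription factor, rose in both (1.09 and 2.42), Chac1, a glutathione-degrading target of Atf4, fell in WT livers (-1.98, against -0.25 in PXR-KO livers), Mapk8 (Jnk1) rose in WT livers (0.64), and Cebpg rose in PXR-KO livers (0.49). Of 20 cytosolic and mitochondrial heat shock genes, 11 rose and none fell in WT livers (median 0.42), and 6 rose and none fell in PXR-KO livers (median 0.32). Hspe1 (mitochondrial Hsp10) rose by 1.04 in WT livers and stood at 0.09 in PXR-KO livers. Hspb1 (Hsp27) rose by 1.07 and Chordc1, an Hsp90 cochaperone, by 0.80 in WT livers, and their PXR-KO values of 0.34 did not pass. Dnajb6, a J-domain cochaperone, gave -0.23 in WT and 0.31 in PXR-KO livers, neither past the test, and its difference of -0.54 (adjusted p by limma 0.00155) was the single negative one past the test in this list, beside 4 positive ones. The 6 genes that rose in PXR-KO livers did so by 0.39 to 0.62. These lists were drawn up with earlier results of these data known, and their counts are a description.

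**Figure D5:**
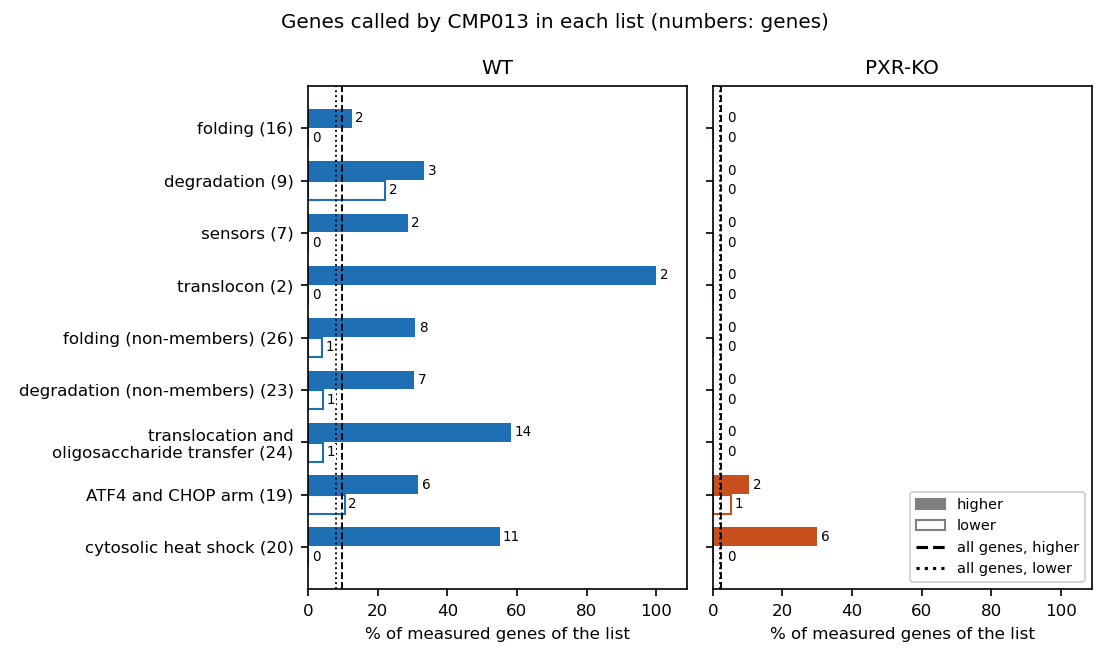
Share of the measured genes of each list with an adjusted p under 0.05, higher (filled) or lower (open) under CMP013, in WT and PXR-KO livers, with the list size in parentheses and the number of genes beside each bar. The dashed and dotted lines are the shares of all 18193 genes (9.72% higher and 7.98% lower in WT, 2.5% and 2.14% in PXR-KO livers), and the 4 member classes have no bar in PXR-KO livers.

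Markers of other liver cells moved with the treatment and are given as values. In WT livers 4 of 7 endothelial, 3 of 9 macrophage and 2 of 7 stellate cell markers fell and none rose. The median of the endothelial markers in a mouse ran from -0.44 to -0.29 with CMP013 and from -0.12 to 0.13 with vehicle, that of the macrophage markers from -0.58 to -0.10 and from -0.30 to 0.18, and that of the stellate markers from -0.81 to 0.11 and from -0.19 to 0.23. In PXR-KO livers 2 of 9 macrophage markers rose, among them Marco (4.22) and Cd68 (1.11), and the medians ran from 0.05 to 0.49 with CMP013 and from -0.31 to 0.41 with vehicle. Of the 7 endothelial markers there 1 rose (Lyve1, 1.12) and 1 fell (Kdr, -0.41). Of the 7 hepatocyte markers 1 fell in WT livers (Fgb, -0.29) and none passed in PXR-KO livers. Of 8 markers of B and plasma cells, which also make much ER protein, 1 rose (Sdc1, which hepatocytes express too) and 1 fell in WT livers (Jchain, -0.97), and Sdc1 alone rose in PXR-KO livers. None of 6 T and NK cell and 4 biliary markers passed in either genotype, and of 7 pancreatic acinar markers 1 (Cela1) fell in both. RNA integrity in the labels ran lower in PXR-KO than in WT mice. The part of these in the responses of the ER genes was not tested.

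Several calls depended on few mice or were lost under quantile normalization, which shrinks the ratios of treated WT mice by construction. The shares of all genes called were not counted under these alternatives. Without vehicle replicates 3 and 4 of WT and 2 and 4 of PXR-KO mice 4 members rose in WT livers in place of 9 (Dnajb9, Pdia4, Derl1 and Sec61b), Herpud1 and Os9 still fell, and no positive difference passed (Pdia4, Mbtps2 and Sec61b, adjusted p by limma 0.105, 0.068 and 0.0793). With all 4 groups in 1 fit, which pools the spread, Dnajb9, Dnajc3, Eif2ak3 and Pdia3 rose in PXR-KO livers and Ern1 fell by its measuring probe set (-0.43, adjusted p by limma 0.0421, beside the probe set at 0.44), so the count of 0 there rests on a test within 10 arrays. Under quantile normalization of the ratios 7 of the 9 WT rises no longer passed (Pdia4, Syvn1, Edem2, Mbtps2, Atf6, Sec61b and Sec61a1, adjusted p by limma 0.091 to 0.461), and Dnajb9 and Derl1 did (0.0209 and 0.0485). The WT falls of Herpud1 and Os9 no longer passed (adjusted p by limma 0.0815 and 0.1), whereas their differences did (0.0239 and 0.0353). None of the positive differences passed (Pdia4, Mbtps2 and Sec61b, adjusted p by limma 0.217, 0.21 and 0.251).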

How the data were processed

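The authors scanned 1 Affymetrix Mouse430_2 array per mouse and made log ratios in Rosetta Resolver, per the paper's methods. The deposited values are log10 ratios of each mouse to the mean of the 5 vehicle mice of its genotype, used with the authors' normalization and multiplied by 3.322, the log2 of 10. Intensities, detection calls and platform p-values were not used, so signal over background is unknown and dim probe sets were kept. The number of arrays limits the precision.

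The design had foreseen log2 values or ratios, so no test was changed. All 20 columns were mapped by their sample labels. lmFit and eBayes of limma 3.58.1 (R 4.3.3) compared CMP013 with vehicle in each genotype (10 arrays) and the 2 responses (20 arrays), with Benjamini-Hochberg adjustment over 45037 probe sets and a call at an adjusted p under 0.05. It was tested on simulated data. P-values measure the spread between mice, 1 array each. A gene was measured by a probe set annotated to it alone (34945 probe sets, the platform's annotation table), without the _s_ or _x_ mark first, then by the smallest SD among vehicle mice, a choice that favours probe sets of low spread. Values per mouse are given for called members and for Hspa5, Xbp1, Atf6, Eif2ak3 and Ern1, and up to 4 genes with the smallest adjusted p are named per further list. Members and lists were chosen with earlier results of these data known. Promoter windows are from RefSeq (GRCm38.p6). Python 3.11.15, numpy 2.4.6, pandas 2.3.3 and matplotlib 3.10.9 handled tables and figures. Replicate numbers did not pair the mice (correlations of the deviations of same-numbered mice -0.242 to 0.0651). Alternatives were array weights, trend and robust variances, a replicate block, all groups in 1 fit, a minimum fold change (treat, at the threshold the study used per mouse), 2 normalizations, 3 ways to choose probe sets, 4 vehicle mice or each mouse left out, and a stricter threshold.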

Additional observations from a re-analysis of the deposited data

Results flagged for a closer look

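In 60 groups of 5 values (15 genes with values per mouse, 4 groups each), the highest or lowest mouse stood far from the rest of its group 4 times, and chance gives about 1 in 20 such groups. PXR-KO CMP013 replicate 1 was at 0.20 for Sec61b, with the nearest other mouse at -0.01, and at 0.43 for Edem2, with the nearest at 0.03. PXR-KO vehicle replicate 2 was at 0.26 for Pdia4, with the nearest at 0.02. WT vehicle replicate 2 was at -0.40 for Atf6, with the nearest at 0.08, and without it the Atf6 rise in WT livers had an adjusted p by limma of 0.0413.

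The responses of 5 members differed between the genotypes by the test of the difference itself (WT minus PXR-KO, limma): Herpud1 by -0.76, Os9 by -0.62, Pdia4 by 0.62, Mbtps2 by 0.42 and Sec61b by 0.42. Each of these 5 calls was kept in all 20 fits with 1 mouse left out.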

How the results depend on the processing

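The WT rise of Dnajb9 (adjusted p by limma up to 0.0237) and the difference of Herpud1 (up to 0.033) passed under every alternative run, and no value called in the reported fits changed sign. With the probe set of the largest fold change, or any probe set of the gene, values that were not called turned and passed for Dnajc3 in WT (from 0.11 to -0.33, adjusted p by limma 0.0426), Sel1l in WT (from 0.05 to -0.43, adjusted p 0.0108) and the Hspa5 difference (from -0.11 to 0.44, adjusted p 0.0094). Shares of all genes were not counted under the alternatives. The counts below therefore do not show whether the members lost or gained calls more than other genes. The WT count of rises was 9, and it was 2 with the replicate block, 1 with a minimum fold change, 2 with quantile normalization, 4 without the 4 vehicle mice and 4 at an adjusted p under 0.01. Array weights added WT rises of P4hb, Selenos and Eif2ak3 (adjusted p by limma 0.0463, 0.0302 and 0.0238), and no call was lost there. All groups in 1 fit added the same genes (adjusted p by limma 0.00831, 0.044 and 0.0466) and lost Syvn1 and Sec61a1. The WT count of falls was 2, and it was 1 with the block, 0 with a minimum fold change, 0 with quantile normalization, 5 with the probe set of the largest fold change and 6 with any probe set of the gene. The PXR-KO count of rises was 0, and it was 2 with array weights, 4 with all groups in 1 fit, 1 with the mean of the probe sets and 2 with any probe set, and the count of falls was 1 with all groups in 1 fit. The count of positive differences was 3, and it was 0 with a minimum fold change, 0 with quantile normalization, 0 without the 4 vehicle mice, 0 at an adjusted p under 0.01, 5 with the largest fold change and 5 with any probe set. That of negative differences was 2, and it was 1 with a minimum fold change and 4 with the mean, the largest fold change or any probe set. With 1 mouse left out the counts ran from 7 to 9 and 2 to 2 in WT, from 0 to 1 and 0 to 0 in PXR-KO livers, and from 3 to 4 and 2 to 4 for the difference. The PXR-KO rise was Eif2ak3, without PXR-KO CMP013 replicate 3 or 5, and the further differences were Edem2 without PXR-KO CMP013 replicate 1, Dnajc10 without PXR-KO CMP013 replicate 5, and Xbp1. The fits with fewer mice and the stricter thresholds have less power by construction. Quantile normalization shrinks the ratios of treated WT mice by construction, and for the other alternatives the cause was not tested. The replicate numbers share only a label, so the block result, which removes residual degrees of freedom, is given here alone.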
